A study of Mus musculus with 18 samples.

Results

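Insulin-like growth factor (IGF) signaling was described here through 10 genes: the ligands Igf1 and Igf2, the receptors Igf1r and Igf2r, and the binding proteins Igfbp2 to Igfbp7. They were chosen by gene symbol from the 19938 mouse genes that had a probe set naming that gene alone, and all 10 were on the array with 1 probe set each. RNA came from floated adipocytes of male C57BL/6J mice aged 6, 14 or 18 months, fed standard chow and carrying no transgene or treatment in any group. Bone marrow adipocytes were floated from marrow flushed out of femurs and tibias after red cell lysis, and epididymal white adipocytes (called peripheral white adipocytes in the sample labels) were taken as the comparison depot. Each of the 6 groups had 3 arrays, and each array carried RNA pooled from several animals, so the spread between arrays is a spread between pools.

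IGF-I carries much of the growth-promoting action of growth hormone (GH) and is made in liver as well as locally in fat and bone, where it acts on neighboring cells. Both IGF-I and IGF-II signal through the IGF-I receptor, a tyrosine kinase closely related to the insulin receptor, whereas the IGF-II receptor removes IGF-II from the cell surface and sorts lysosomal enzymes. The binding proteins hold IGFs outside the cell, and proteases such as PAPP-A (Pappa) release the ligand by cutting them. In adipose tissue the system is known for its part in the growth of preadipocytes and in their differentiation, and in bone for its part in osteoblast growth.

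The promoters of the 4 genes on which the results turn are shown first: Igf1, Igf1r and Igfbp6, which had the widest gaps between the 2 cell types, and Igfbp7, which had the deepest fall with age in bone marrow adipocytes. The windows are RefSeq sequence on build GRCm38.p6, from 250 bases before to 50 bases after the annotated start, 5′ to 3′ on the strand of the gene. Capitals mark the TATA box letters TATAAA, the CAAT box letters CCAAT, the GC box letters GGGCGG, or TTCNNNGAA (the palindrome bound by STAT5, a factor activated by GH) on either strand.
Igf1, chr10:87860861-87861160, plus strand: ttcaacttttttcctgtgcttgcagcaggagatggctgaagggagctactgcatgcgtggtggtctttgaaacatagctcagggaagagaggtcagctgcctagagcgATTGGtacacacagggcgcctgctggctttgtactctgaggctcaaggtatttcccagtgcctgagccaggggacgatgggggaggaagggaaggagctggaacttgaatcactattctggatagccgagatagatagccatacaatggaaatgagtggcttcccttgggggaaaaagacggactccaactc
Igf1r, chr7:67952007-67952306, plus strand: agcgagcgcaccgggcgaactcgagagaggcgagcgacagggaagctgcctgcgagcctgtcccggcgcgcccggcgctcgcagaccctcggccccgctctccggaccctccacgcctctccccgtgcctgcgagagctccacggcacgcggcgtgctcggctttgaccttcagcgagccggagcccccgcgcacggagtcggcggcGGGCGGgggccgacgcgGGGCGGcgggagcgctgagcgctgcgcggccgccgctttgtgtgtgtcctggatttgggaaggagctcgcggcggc
Igfbp6, chr15:102143936-102144235, plus strand: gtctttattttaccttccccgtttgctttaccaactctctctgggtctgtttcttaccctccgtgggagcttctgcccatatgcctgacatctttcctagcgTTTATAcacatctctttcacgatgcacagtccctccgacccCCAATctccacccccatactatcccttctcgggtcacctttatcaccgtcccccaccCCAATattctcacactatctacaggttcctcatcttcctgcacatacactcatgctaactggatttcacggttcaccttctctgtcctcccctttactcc
Igfbp7, chr5:77407996-77408295, minus strand: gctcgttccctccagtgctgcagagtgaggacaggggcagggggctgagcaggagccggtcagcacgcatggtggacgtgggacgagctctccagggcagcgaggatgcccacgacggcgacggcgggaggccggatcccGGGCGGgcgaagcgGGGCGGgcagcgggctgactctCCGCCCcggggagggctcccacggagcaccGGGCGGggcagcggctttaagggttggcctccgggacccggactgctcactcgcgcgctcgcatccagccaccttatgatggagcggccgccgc
The Igf1r and Igfbp7 windows were rich in G and C (76.0% and 73.3%, against a median of 52.7% over all 32851 windows) and held 2 and 4 GC boxes, a motif found in 35.7% of all windows. Igfbp6, with 49.7% G and C, held no GC box but 1 TATAAA (13.6% of all windows) and 2 CCAAT (37.4%), and Igf1 held 1 CCAAT. None of the 14 windows of the 10 genes held TTCNNNGAA, which 8.30% of all windows did. These matches describe the letters in the window alone.

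Each value below is the log2 signal of a gene's probe set on 1 array. A log2 difference of 1 is a doubling, and signals of different genes cannot be set against each other because their probes differ. A gene was called changed between cell types where limma's adjusted p (Benjamini-Hochberg, over all 23410 probe sets that named a gene) was under 0.05 with a difference of at least 2-fold, and changed with age where the adjusted p was under 0.05. The cell content of the preparations has to be kept in view. In bone marrow preparations all 11 adipocyte markers were lower than in epididymal adipocytes (median difference -5.11; Adipoq 6.43 to 9.05 against 12.22 to 12.87), and all 10 neutrophil markers (median 5.92) and all 6 erythroid markers (median 4.67) were higher. Macrophage and monocyte markers (9 of 12 higher and 0 lower, median 1.47) and B lineage markers (7 of 9 higher and 1 lower, median 2.54) were mostly higher. The macrophage and monocyte median was 1.64 at 6 months, 0.09 at 14 months and 3.13 at 18 months. Endothelial markers (8 of 10 lower and 1 higher, median -1.44), fibroblast and adipose progenitor markers (8 of 12 lower and 1 higher, median -2.57) and mesothelial markers (7 of 9 lower, median -1.88) were mostly lower. The part of any of these cells in the differences of the 10 genes was not tested. The epididymal 6-month array of replicate 1 stood apart, with a mean neutrophil marker signal of 9.12 against 5.58 and 5.88 on its companions. In such bulk RNA, fewer cells of a type and less RNA per cell cannot be told apart.

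**Figure D1:**
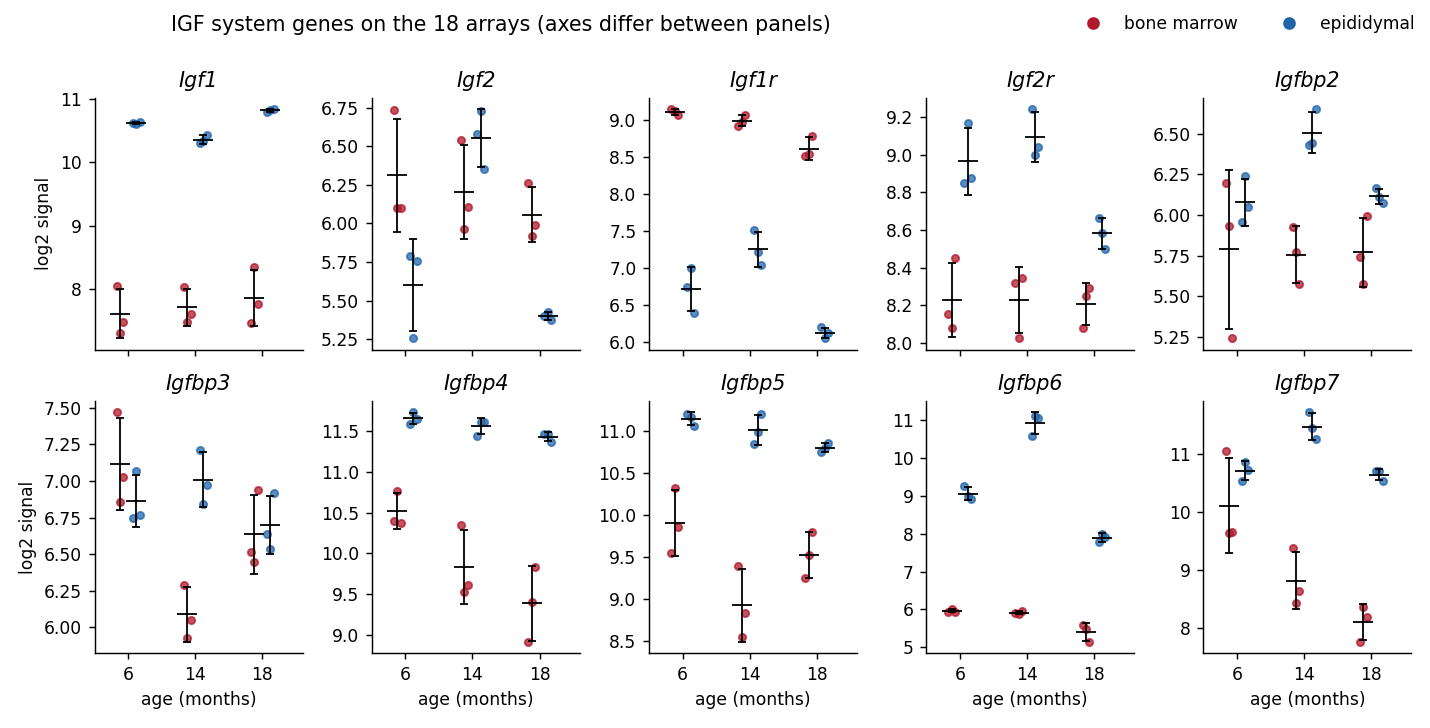
Log2 signal (y axis, own scale in each panel) of the 10 genes by age in months (x axis) in bone marrow (red) and epididymal (blue) adipocytes. Each point is 1 array, and the black dash and bars are the mean ± SD of 3 arrays. Igf1 and Igfbp6 are lower and Igf1r is higher on every bone marrow array than on any epididymal array.

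To ask how IGF signaling genes differ between the depots, bone marrow and epididymal adipocytes were compared over the mean of the 3 ages. Bone marrow adipocytes had less Igf1 and less of 4 binding proteins, Igfbp4, Igfbp5, Igfbp6 and Igfbp7, but more of the receptor Igf1r. Igf1r was thus 1 of 10 members called higher (10.2% of all probe sets were), and 5 of 10 members were called lower (11.6% of all were). The median difference over the members was -1.10, against -0.02 over all probe sets tested. Igf2, Igf2r, Igfbp2 and Igfbp3 stayed under 2-fold.

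Igf1 (probe set 10365559) read 8.05, 7.31 and 7.48 on the bone marrow arrays at 6 months, 8.04, 7.49 and 7.61 at 14 months, and 7.47, 8.34 and 7.76 at 18 months. The epididymal arrays read 10.62, 10.59 and 10.63, then 10.30, 10.33 and 10.43, then 10.79, 10.81 and 10.83. Every bone marrow array lay far below every epididymal array, and the epididymal arrays of each age clustered tightly with no overlap between ages. No change of Igf1 between ages was called, and the share of all probe sets without such overlap was not counted. Igf1 was 7.29-fold lower in bone marrow adipocytes (log2 difference -2.87, SE 0.11, adjusted p = 2.82e-14). The gap was present at each age, at -3.00, -2.64 and -2.96 from 6 to 18 months.

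Igf1r (10554094), the signaling receptor, ran the other way. Bone marrow arrays read 9.15, 9.12 and 9.07 at 6 months, 8.93, 8.97 and 9.08 at 14 months, and 8.52, 8.54 and 8.79 at 18 months. The epididymal arrays read 6.75, 7.00 and 6.39, then 7.51, 7.22 and 7.04, then 6.19, 6.05 and 6.11. The lowest bone marrow array was above the highest epididymal array, and Igf1r was 4.64-fold higher in bone marrow adipocytes (log2 difference 2.21, SE 0.08, adjusted p = 1.13e-14). At single ages the difference was 2.40, 1.74 and 2.50. The receptor that clears IGF-II, Igf2r (10447799), differed in the opposite direction and by less. Bone marrow arrays ranged from 8.02 to 8.45 and epididymal arrays from 8.50 to 9.24, with no overlap (log2 difference -0.66, SE 0.08, adjusted p = 2.26e-07), which is under 2-fold.

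Igfbp6 (10427125), a binding protein that prefers IGF-II, had the widest gap of the 10. Bone marrow arrays read 5.93, 6.01 and 5.94 at 6 months, 5.90, 5.88 and 5.96 at 14 months, and 5.59, 5.49 and 5.15 at 18 months. Epididymal arrays ran from 8.92 to 9.25 (mean 9.06) at 6 months, read 10.58, 11.11 and 11.04 at 14 months, and averaged 7.90 ± 0.11 (SD, n = 3) with a lowest value of 7.78 at 18 months. The bone marrow values hardly moved between 6 and 14 months, while the epididymal values of the 3 ages formed 3 separate levels. Every bone marrow value was low, under the median of 6.14 over the means of all tested probe sets. How much of that signal was background was not tested. Igfbp6 was 11.5-fold lower in bone marrow adipocytes over the ages (log2 difference -3.53, SE 0.08, adjusted p = 1.26e-17). The difference was -3.10 at 6 months, -5.00 at 14 months and -2.49 at 18 months.

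Igfbp7 (10530841), a secreted protein of vessel walls with low affinity for IGFs, read 11.05, 9.63 and 9.66 on the bone marrow arrays at 6 months, 9.37, 8.44 and 8.64 at 14 months, and 7.77, 8.36 and 8.20 at 18 months. Epididymal arrays read 10.54, 10.86 and 10.73, then 11.71, 11.44 and 11.26, then 10.70, 10.70 and 10.53. The first 6-month bone marrow array stood above its companions and above all 6 epididymal arrays of 6 and 18 months. Igfbp7 was 3.81-fold lower in bone marrow over the ages (log2 difference -1.93, SE 0.17, adjusted p = 5.36e-09), but at 6 months the difference was -0.60 (95% interval -1.21 to 0.02, adjusted p = 0.110) and not called. Without bone marrow replicate 1 of 6 months it was -1.07 and called. At 14 and 18 months it was -2.65 and -2.54.

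Igfbp4 (10381096), which withholds IGF from its receptor until PAPP-A cuts it, ranged from 8.91 to 10.77 on bone marrow arrays and from 11.38 to 11.73 on epididymal arrays. The groups did not overlap, and the log2 difference was -1.64 (SE 0.12, adjusted p = 2.91e-10). Igfbp5 (10355500), a binding protein that is stored in bone matrix, ranged from 8.54 to 10.33 and from 10.75 to 11.21, with a difference of -1.54 (SE 0.12, adjusted p = 5.76e-10). Both were more uneven between bone marrow pools than between epididymal pools, with SDs of 0.22 to 0.46 against 0.05 to 0.18.

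The remaining 3 genes, Igf2, Igfbp2 and Igfbp3, overlapped between the cell types, as Igfbp7 did. The share of all probe sets that overlapped was not counted. Over the 18 arrays Igf2 and Igfbp2 averaged 6.02 and 6.00, under the median of 6.14 over the means of all tested probe sets. How much of their signal was background was not tested. Igf2 (10569344), an imprinted ligand of fetal growth, ranged from 5.92 to 6.73 on bone marrow arrays and from 5.26 to 6.73 on epididymal arrays. Its mean difference of 0.34 (SE 0.11, adjusted p = 0.0111) was under 2-fold, and it went from 0.71 and 0.66 at 6 and 18 months to -0.35 at 14 months. Setting ribosomal protein genes equal between arrays, which lowers the median difference of all probe sets from -0.02 to -0.77, turned the Igf2 mean difference to -0.41. Igfbp2 (10347277), a product of preadipocytes, differed by -0.46 (SE 0.11, adjusted p = 0.000768), and Igfbp3 (10384223), the main IGF carrier of blood, by -0.24 (SE 0.10, adjusted p = 0.0440). From 6 to 18 months the difference was -0.29, -0.75 and -0.34 for Igfbp2, and 0.25, -0.92 and -0.06 for Igfbp3. At 14 months neither gene overlapped, though both stayed under 2-fold. Without bone marrow replicate 1 or epididymal replicate 2 of 14 months, Igfbp3 was called there. With no fold limit all 10 members passed the test, as did 58.1% of all probe sets.

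At single ages the members were called 1 higher and 4 lower at 6 months (11.4% and 11.8% of all probe sets), 1 higher and 5 lower at 14 months (9.91% and 11.5%), and 1 higher and 5 lower at 18 months (10.9% and 12.9%). Igf1r was the member called higher at each age, and Igfbp7 was the member that 6 months lacked. Leaving out all 14-month arrays, an alternative chosen after seeing the markers described further on, left 6 members called over the other 2 ages.

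**Figure D2:**
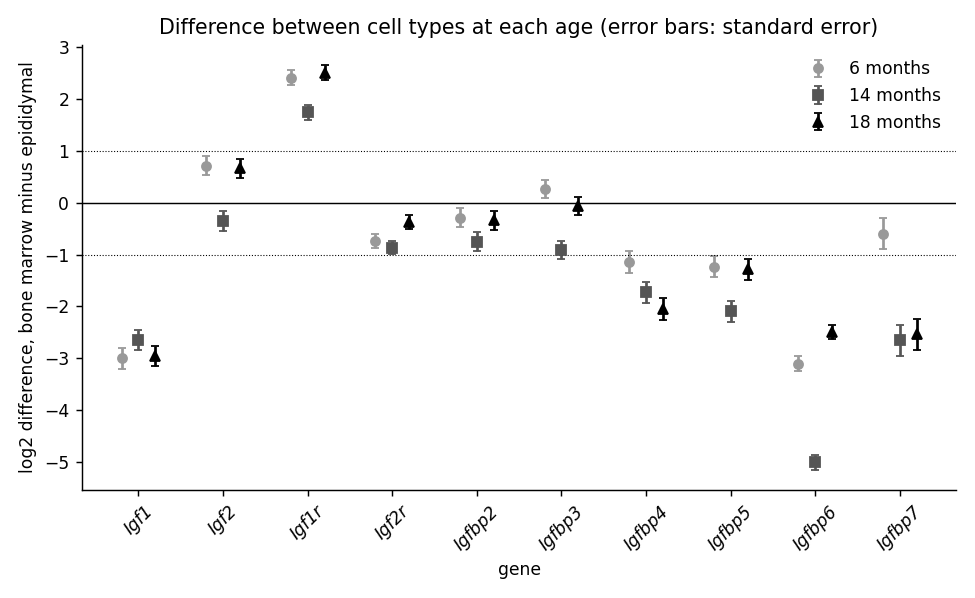
Log2 difference between bone marrow and epididymal adipocytes (y axis, bone marrow minus epididymal) for each gene (x axis) at 6, 14 and 18 months. Symbols are estimates from 3 arrays a group, bars are standard errors, and dotted lines mark 2-fold. Igf1r lies near 2 above the zero line, Igf1 lies near 3 below it, and Igfbp6 reaches -5.00 at 14 months.

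In bone marrow adipocytes the called changes from 6 months were falls, and only Igfbp4 and Igfbp7 were called at both 14 and 18 months. Igf1, Igf2, Igf2r and Igfbp2 were not called at any step. Between 6 and 14 months 4 of 10 members fell (3.58% of all probe sets did) and 0 rose (5.08%); the median member changed by -0.11, against -0.02 for all. Igfbp7 fell by 1.29 on the log2 scale (SE 0.29, adjusted p = 0.00924), Igfbp3 by 1.03 (SE 0.17, adjusted p = 0.00107), Igfbp5 by 0.99 (SE 0.20, adjusted p = 0.00480) and Igfbp4 by 0.69 (SE 0.21, adjusted p = 0.0452). In all 4 genes the 3 arrays of 14 months lay below the 3 of 6 months, for Igfbp4 narrowly (highest 10.35 against lowest 10.38). The genes were picked by the call on the same arrays, so this order is no added support. Its share over all probe sets was not counted. The Igfbp4 call was the least secure, since leaving out any of 14 single arrays ended it (values -0.74 to -0.54), and the Igfbp7 call ended without bone marrow replicate 2 or 3 of 14 months (-1.11 and -1.21). When the 6 bone marrow arrays were fitted alone, with less information on the spread, 1 of the 4 calls was left, that of Igfbp3. The fit of all 18 arrays also shares 1 spread per gene between the cell types. Igfbp7 had SDs of 0.31 to 0.81 in bone marrow groups and 0.10 to 0.23 in epididymal groups. For Igfbp7, and for Igfbp4 and Igfbp5 as described above, the SEs given here may therefore understate the spread between bone marrow pools.

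Between 6 and 18 months 4 members fell (5.13% of all did) and 0 rose (3.37%), with a median of -0.43 against -0.05 for all. Igfbp7 fell by 2.00 (SE 0.29, adjusted p = 0.000795), and its 3 arrays of 18 months (7.77 to 8.36) lay below every array of 6 and 14 months. Igfbp4 fell by 1.13 (SE 0.21, adjusted p = 0.00309), from 10.52 ± 0.22 to 9.39 ± 0.46 (SD, n = 3). Smaller falls were called for Igfbp6 (-0.55, SE 0.14, adjusted p = 0.0216) and Igf1r (-0.50, SE 0.14, adjusted p = 0.0377). The Igfbp6 signal was low at every age in bone marrow, as described above. Igfbp6 lost its call without replicate 2 of 6 months (-0.53) or replicate 3 of 18 months (-0.42), and Igf1r lost its call without any of 6 arrays: bone marrow replicates 1 and 2 of 6 months (-0.48 and -0.49) and of 18 months (-0.45 and -0.46), and epididymal replicates 2 and 3 of 18 months, which changed the spread and not the value. Fitted on the 6 bone marrow arrays alone, 0 members and 18 probe sets in all were called.

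Igfbp3 and Igfbp5 did not go on falling. From 14 to 18 months Igfbp3 rose by 0.55 (SE 0.17, adjusted p = 0.0436), from 6.09 ± 0.19 to 6.63 ± 0.27 (SD, n = 3), and Igfbp6 fell by 0.51 (SE 0.14, adjusted p = 0.0225); these were 1 riser and 1 faller of 10 (4.75% and 8.23% of all probe sets). Igfbp5 differed by 0.60 over the same step (adjusted p = 0.0602) and was not called. The Igfbp3 rise lost its call without any of 8 single arrays (values 0.39 to 0.61). The Igfbp6 fall lost its call without any 1 of the 14-month bone marrow arrays (-0.51, -0.53 and -0.48 from replicate 1 to 3) and without replicate 3 of 18 months (-0.38). These 3 steps of age share arrays, so their values are not independent.

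Markers of vessel and stromal cells moved in the same bone marrow arrays. Of 10 endothelial markers, 6 fell between 6 and 14 months (median -0.88) and 7 between 6 and 18 months (median -0.72); their mean signal ranged from 7.14 to 7.27 at 6 months, 6.15 to 6.85 at 14 months and 6.25 to 6.53 at 18 months. Cdh5, the cadherin of endothelial junctions, went from 7.35 ± 0.55 to 5.86 ± 0.49 and 5.66 ± 0.42 (SD, n = 3). Of 8 marrow stromal markers, 4 and 3 fell over the same steps, and of 5 osteoblast markers 2 and 3 fell. Adipocyte markers had 1 and 3 of 11 falling. Some genes count in more than 1 list: Adipoq is an adipocyte and a stromal marker. Pdgfra is in the stromal and fibroblast lists, and Col1a1 in the osteoblast and fibroblast lists. Other lists went differently. Of 12 macrophage and monocyte markers, 5 rose and 0 fell at 14 months, and 1 rose and 0 fell between 6 and 18 months. The part of these cells in the falls of Igfbp7 and of the other binding proteins called lower was not tested.

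**Figure D3:**
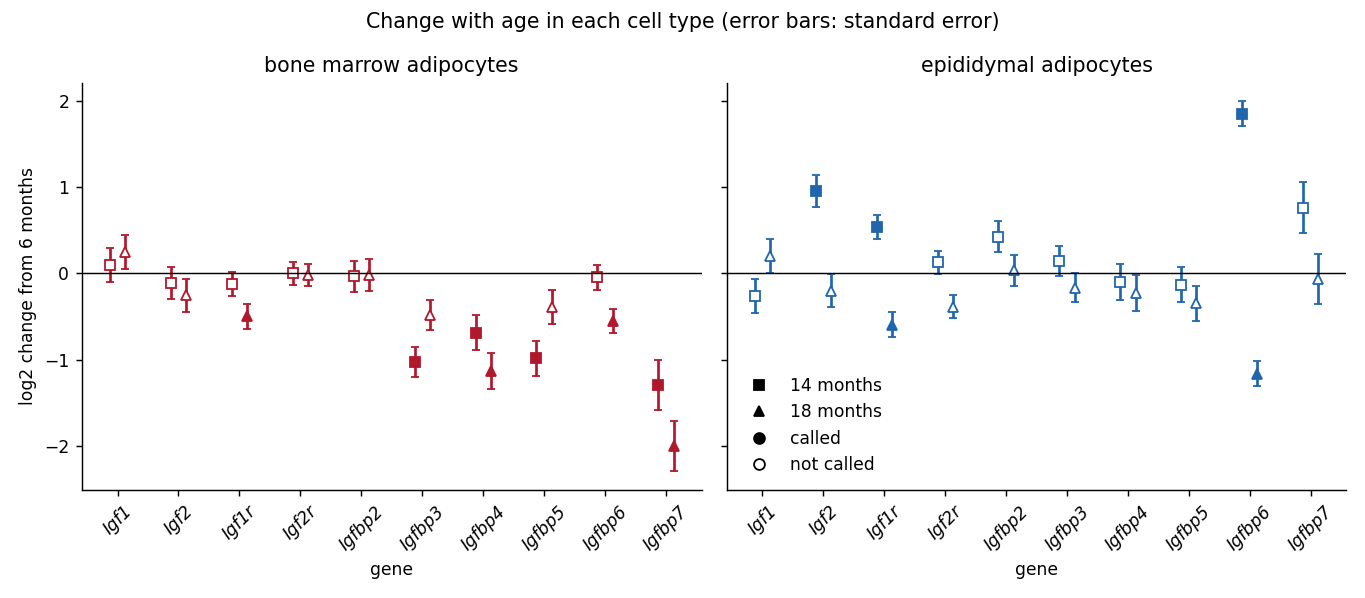
Log2 change from 6 months (y axis) to 14 months (squares) and 18 months (triangles) for each gene (x axis), in bone marrow (left) and epididymal (right) adipocytes; bars are standard errors, and filled symbols passed the test. In bone marrow the called changes are falls and lie mainly in the binding proteins, while in epididymal adipocytes Igf2, Igf1r and Igfbp6 rise at 14 months.

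In epididymal adipocytes the members called between 6 and 14 months rose, and those called from 14 to 18 months fell. Between 6 and 14 months 3 of 10 members rose (10.2% of all probe sets did) and 0 fell (7.51%), with a median of 0.29 against -0.04. Igfbp6 rose 3.61-fold (1.85 on the log2 scale, SE 0.14, adjusted p = 2.61e-08), from 9.06 ± 0.17 to 10.91 ± 0.29 (SD, n = 3). Igf2 read 5.79, 5.26 and 5.76 at 6 months and 6.58, 6.73 and 6.35 at 14 months, with no overlap, and rose by 0.95 (SE 0.19, adjusted p = 0.00119). Every epididymal Igf2 value at 6 and 18 months was low, under the median of 6.14 over the means of all tested probe sets. Igf1r rose by 0.54 (SE 0.14, adjusted p = 0.0119), a call that ended without epididymal replicate 3 of 6 months (0.38) or replicate 1 of 14 months (0.41). It also ended with ribosomal protein genes set equal (0.27), and with the 6 epididymal arrays fitted alone.

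From 14 to 18 months 5 of 10 members fell (12.5% of all did) and 0 rose (11.7%), with a median of -0.45 against -0.01. Igfbp6 fell 8.09-fold (-3.02, SE 0.14, adjusted p = 2.84e-11), Igf2 fell by 1.15 (SE 0.19, adjusted p = 0.000131) to 5.40, 5.43 and 5.38, and Igf1r fell by 1.14 (SE 0.14, adjusted p = 8.10e-06). Smaller falls were called for Igf2r (-0.51, SE 0.13, adjusted p = 0.00672) and Igfbp7 (-0.83, SE 0.29, adjusted p = 0.0479). Igf2r lost its call where arrays were centred on their medians (-0.25) or ribosomal protein genes set equal (-0.29), and Igfbp7 lost it without any of 12 single arrays (values -0.93 to -0.71). Between 6 and 18 months 2 members fell, Igfbp6 (-1.16, SE 0.14, adjusted p = 1.87e-05) and Igf1r (-0.60, SE 0.14, adjusted p = 0.00783), and 0 rose (8.01% and 8.22% of all probe sets), with a median of -0.21 against -0.06. The Igf1r call over that step ended without epididymal replicate 2 of 6 months (-0.45) and with arrays centred on their medians (-0.41).

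Igf1 took the opposite course in these 9 arrays without passing the test. Its means were 10.61, 10.35 and 10.81 at 6, 14 and 18 months, and the 3 groups did not overlap. How many of all probe sets were without overlap between these ages was not counted. The steps were -0.26 (95% interval -0.67 to 0.15), then 0.46 (0.05 to 0.88, adjusted p = 0.103). These intervals use the spread shared with the bone marrow arrays, where Igf1 SDs were 0.29 to 0.44. In the epididymal groups they were 0.02 to 0.07, so the intervals are wide for these pools. Over the 9 epididymal arrays Igf1 correlated with Igf1r at r = -0.957, with Igfbp6 at -0.962 and with Igf2 at -0.907, whereas Igf2 and Igfbp6 correlated at 0.922. Those points share their 3 age groups, so the values describe the groups as much as the pools. In the 9 bone marrow arrays the same pairs of Igf1 gave -0.323 with Igf1r and 0.286 with Igf2.

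Of 11 adipocyte markers in the epididymal arrays, 0 were called between 6 and 14 months (median -0.21), and 2 rose and 0 fell from 14 to 18 months (median 0.36). Markers of some other cells rose and fell as Igfbp6, Igf2 and Igf1r did. Of 12 macrophage and monocyte markers, 11 rose and 1 fell at 14 months (median 2.19) and all 12 fell from 14 to 18 months (median -3.91); their mean signal was 7.61 to 7.92 at 6 months, 9.45 to 9.89 at 14 months and 6.24 to 6.38 at 18 months. Adgre1, a surface receptor of macrophages, went from 7.16 ± 0.19 to 9.33 ± 0.38 and 5.73 ± 0.09 (SD, n = 3). Of 12 fibroblast and adipose progenitor markers 11 rose at 14 months (median 1.82) and 10 fell by 18 months, from a mean signal of 8.64 to 8.83 to 10.27 to 10.57 and then 8.60 to 8.67; Pdgfra went from 7.30 to 9.96 and 6.79. All 9 mesothelial markers rose (median 1.16) and then all fell, and 7 of 10 endothelial markers rose and then all 10 fell. These lists moved with Igfbp6, Igf2 and Igf1r at 14 months on all 3 arrays, and their part in those changes was not tested. Of 10 neutrophil markers, 0 rose and 3 fell at 14 months (median -1.34). Much of that fall lay in replicate 1 of 6 months, the array that stood apart. Their mean signal was 9.12 on it and 5.88 and 5.58 on its companions, against 5.27 to 5.57 at 14 months. From 14 to 18 months 5 of the neutrophil markers rose and 0 fell. Of 6 erythroid markers 0 rose and 2 fell at 14 months, and then 1 rose and 2 fell. Replicate 1 of 6 months was high in erythroid markers too (mean 7.19 against 5.90 and 6.05).

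**Figure D4:**
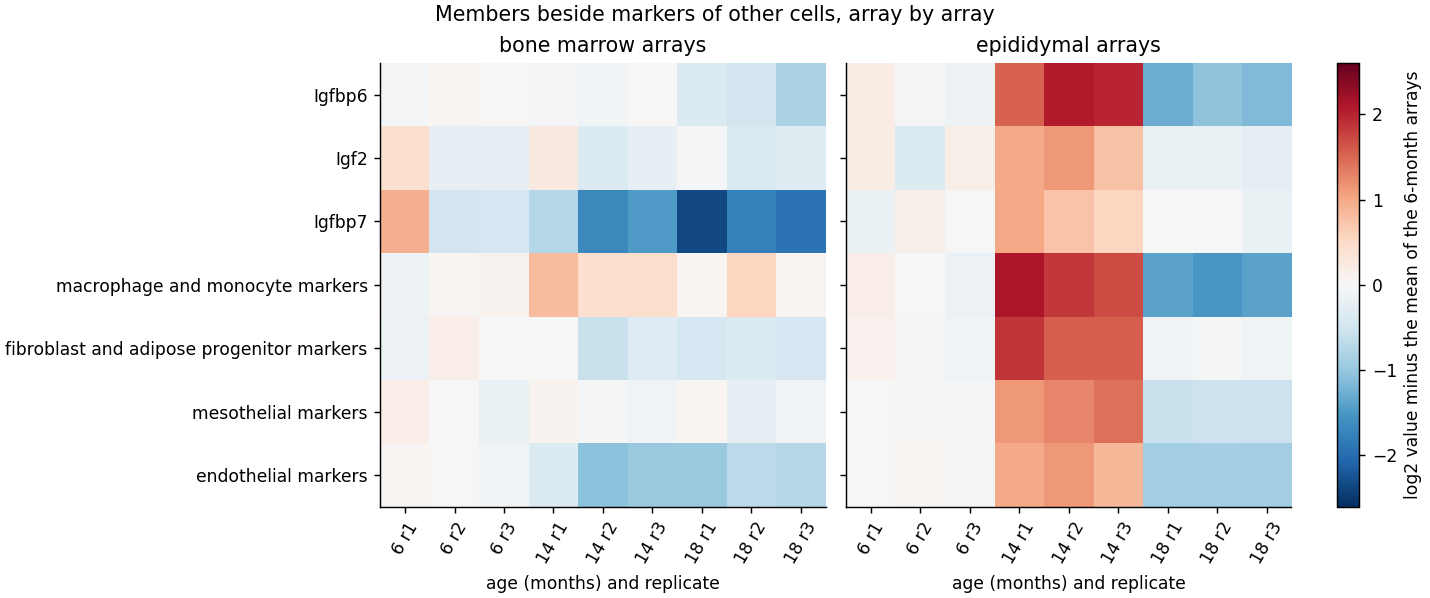
Log2 value minus the mean of the 6-month arrays of the same cell type (color scale, red higher and blue lower) for Igfbp6, Igf2, Igfbp7 and the mean of 4 marker lists (rows) on each array (columns; age in months, r1 to r3 for the replicate). On the epididymal arrays of 14 months all 7 rows are red, and on the bone marrow arrays of 14 and 18 months Igfbp7 and the endothelial list are blue.

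Whether the change with age differed between the 2 cell types was tested as such, as the bone marrow change minus the epididymal change. From 6 to 14 months 5 of 10 members differed (11.6% of all probe sets did), all with a more negative change in bone marrow, and the median was -0.76 against 0.01 for all. The differences were -2.06 for Igfbp7 (SE 0.42, adjusted p = 0.00247), -1.90 for Igfbp6 (SE 0.20, adjusted p = 3.46e-06), -1.18 for Igfbp3 (SE 0.24, adjusted p = 0.00309), -1.06 for Igf2 (SE 0.26, adjusted p = 0.0119) and -0.66 for Igf1r (SE 0.20, adjusted p = 0.0404). They had different makings. Igfbp3 moved in bone marrow (-1.03, against 0.15 in epididymal adipocytes) and Igfbp6 in epididymal adipocytes (1.85, against -0.05). Igfbp7 fell by 1.29 in bone marrow while its epididymal change was 0.76 (adjusted p = 0.0852 with the spread shared with bone marrow, not called). The Igf1r difference was lost without any of 12 single arrays (values -0.70 to -0.50). From 6 to 18 months Igfbp7 alone of the 10 differed (8.51% of all did), by -1.94 (SE 0.42, adjusted p = 0.00722), since it fell by 2.00 in bone marrow and differed by less than its error in epididymal adipocytes (-0.06, 95% interval -0.68 to 0.55).

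Other genes of the GH and IGF axis were taken from a fixed list of 42, of which 38 had a single-gene probe set. Between cell types 3 were higher and 13 lower in bone marrow (10.2% and 11.6% of all probe sets), with a median of -0.21. The widest gap was in Ghr, the GH receptor, which lies upstream of Igf1: it read 7.20 ± 0.11, 6.53 ± 0.73 and 6.54 ± 0.44 in bone marrow, against 12.82 ± 0.04, 12.49 ± 0.10 and 12.94 ± 0.03 in epididymal adipocytes at 6, 14 and 18 months (SD, n = 3), a log2 difference of -5.99 (SE 0.14, adjusted p = 2.10e-17). Htra1, a secreted protease that can cut IGF binding proteins, differed by -4.80, the adaptor Irs3 by -4.04 and Igfals, the acid-labile subunit that holds IGF and Igfbp3 in blood, by -3.76. The insulin receptor Insr (-1.72), its adaptor Irs1 (-2.45) and stanniocalcin 2 (Stc2, -2.10), an inhibitor of PAPP-A, were also lower, and Stc1 (-0.74) was under 2-fold.

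Those higher in bone marrow were Pappa (1.87, SE 0.11, adjusted p = 9.30e-12), Foxo3, a transcription factor that IGF and insulin signals restrain (1.64), and the GH receptor's kinase Jak2 (1.05). Pappa read 7.45 ± 0.39, 6.78 ± 0.32 and 6.21 ± 0.16 in bone marrow (SD, n = 3), against group means of 4.63 to 5.30 in epididymal adipocytes. In bone marrow it fell with age, by 0.67 at 14 months (SE 0.19, adjusted p = 0.0323) and by 1.23 at 18 months (SE 0.19, adjusted p = 0.00105), as its substrate Igfbp4 did. Htra1 fell as well (-1.18 and -0.90). Pappa and Htra1 were among 3 fallers of 38 at 14 months, with Grb10 (-0.52), beside 3 risers (Foxo1 1.01, Irs2 0.97 and Stat5b 0.56), where 3.58% of all probe sets fell and 5.08% rose. At 18 months they were the 2 fallers and Foxo3 (0.57) the 1 riser, where 5.13% of all fell and 3.37% rose, and the shares of the list at that step were near those of all probe sets. From 14 to 18 months 1 rose (Sos1, 0.54) and 4 fell, led by Irs2 (-1.14), Foxo1 (-0.86) and Socs2 (-0.64), against 4.75% and 8.23% of all.

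In epididymal adipocytes 10 of the 38 fell at 14 months and 0 rose (7.51% and 10.2% of all probe sets). The largest falls were in Socs3, a feedback inhibitor of cytokine and insulin signals (-3.14, SE 0.19, adjusted p = 1.94e-09), Irs2, an adaptor of both receptors (-2.09, SE 0.17, adjusted p = 6.04e-08), and Grb14, an inhibitor of the insulin receptor (-0.81). Insr (-0.51) and Irs1 (-0.53) fell too, while Ghr (-0.33), Pappa (0.39), Stc1 (-0.19) and Stc2 (-0.39) were not called. At 18 months 7 were below their 6-month level (Socs3 -1.95, Irs2 -1.56 and Socs2 -0.82 the largest) and 3 were above it (Mrpl23 0.67, Grb10 0.65 and Irs3 0.59), against 8.01% and 8.22% of all. From 14 to 18 months 10 rose, led by Socs3 (1.19), Grb14 (0.99) and Igfals (0.75), and 3 fell (Socs2 -1.24, Pappa -0.67 and Foxo3 -0.46), against 11.7% and 12.5% of all. Irs2 was therefore lower in bone marrow at 6 months (-1.60) and higher at 14 months (1.46), with no call at 18 months (-0.22).

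The change from 6 to 14 months differed between cell types for 11 of the 38 (11.6% of all probe sets), more positive in bone marrow for 8, led by Socs3 (3.69), Irs2 (3.06) and Foxo1 (1.52), and more negative for 3 (Pappa -1.05, Htra1 -0.98 and Grb10 -0.75). At 18 months 9 differed (8.51% of all), 5 more positive (Socs3 1.93, Irs2 1.39 and Jak2 1.03 the largest) and 4 more negative, led by Htra1 (-1.25), Pappa (-0.95) and Grb10 (-0.86).

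**Figure D5:**
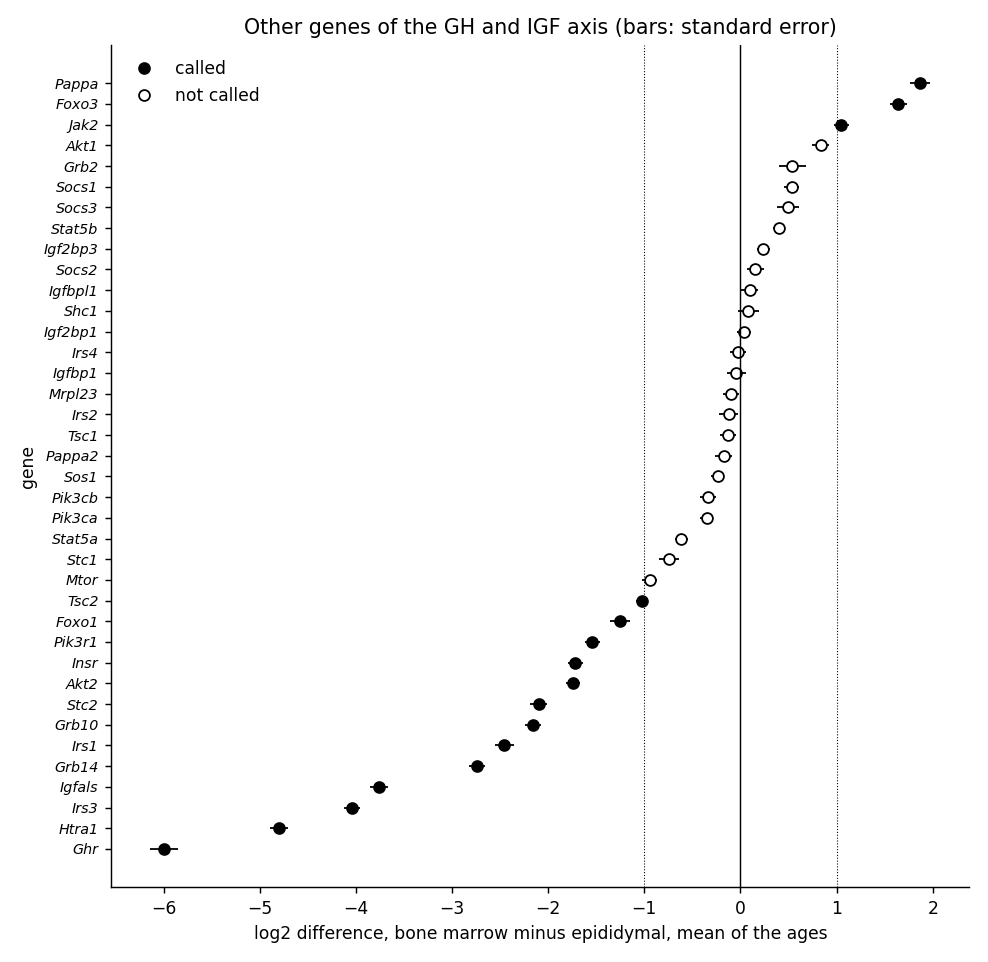
Log2 difference between bone marrow and epididymal adipocytes over the mean of 3 ages (x axis, bone marrow minus epididymal) for 38 other genes of the GH and IGF axis (y axis). Bars are standard errors, filled points passed the test at 2-fold or more (dotted lines), and Ghr at -5.99 and Pappa at 1.87 mark the ends.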

How the data were processed

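Each RNA pool was read on a 1-color Affymetrix array of mouse genes, and the deposited values are log2 signals that the authors processed in Partek. The paper's methods name background correction by GC content (GCRMA) and quantile normalization, whereas the legend of its supplementary figure names RMA. The deposited array values name no genome build; the promoter windows are RefSeq's, on GRCm38.p6. From the 35556 probe sets, the 23410 naming a gene were tested, including 1621 that name several. Array medians ran from 5.33 to 5.65, and the number of arrays limits the precision. No 2 arrays were duplicates. With limma 3.58.1 in R 4.3.3, means of 6 groups were fitted to all 18 arrays (12 residual degrees of freedom), 12 contrasts were tested, and p-values were adjusted by Benjamini-Hochberg within each contrast. The 10 genes, the pathway and marker lists and the comparisons were chosen with earlier results of these data known. Every one of the 10 genes is named, and from the pathway list Ghr, Insr, Irs1, Irs2, Pappa, Stc1 and Stc2 together with up to 3 of the largest called changes each way in each comparison. The fit was tested on simulated data. Alternatives covered scaling, filtering, variance models, sets of arrays, thresholds and single arrays. Genes of the pathway list without a single-gene probe set were not analysed here.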

Additional observations from a re-analysis of the deposited data

Results flagged for a closer look

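For 5 genes the change from 6 to 14 months differed between bone marrow and epididymal adipocytes by limma's test of the difference itself: Igf2 (-1.06), Igf1r (-0.66), Igfbp3 (-1.18), Igfbp6 (-1.90) and Igfbp7 (-2.06), each as the bone marrow change minus the epididymal change on the log2 scale. For Igfbp7 the change from 6 to 18 months differed as well (-1.94). The Igfbp6 and both Igfbp7 differences were called under every alternative tried, whereas setting ribosomal protein genes equal ended the calls of Igf2 (-0.73), Igf1r (-0.33) and Igfbp3 (-0.85). No outlier test was applied to groups of 3 arrays.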

How the results depend on the processing

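Of 49 calls among the 10 genes, 33 were kept under every alternative, 10 were ended by leaving out some single array and 16 by some other alternative; 28 of 71 comparisons without a call gained one somewhere. No called value changed sign. Members called over the mean of the ages went from 6 to 10 with no fold limit, and at 6 months from 5 to 8 with ribosomal protein genes set equal. In bone marrow, fitting the compared groups alone left 1 call of 4 at 14 against 6 months and 0 of 4 at 18 against 6 months (271 and 18 probe sets in all); at 18 against 6 months, median centring, ribosomal scaling and an adjusted p under 0.01 each left 2. At 18 against 14 months (2 calls) median centring, testing all probe sets and ordinary analysis of variance each left 1, ribosomal scaling ended both and gave 1 other, Igfbp5, array weights gave 4 and an adjusted p under 0.01 gave 0. In epididymal adipocytes at 18 against 6 months (2 calls) median centring left 1 and the compared groups alone gave 4. For the difference of changes at 14 months (5 calls) ribosomal scaling left 2 and an adjusted p under 0.01 left 3; at 18 months (1 call) median centring, ribosomal scaling and leaving out dim probe sets gave 2. The causes were not tested.

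Leaving out single arrays gave 2 to 4 calls in bone marrow at 14 against 6 months (2 without bone marrow replicate 2 or 3 of 14 months), 2 to 4 at 18 against 6 months (2 without replicate 2 of 6 months) and 0 to 4 at 18 against 14 months (0 without replicate 2 or 3 of 14 months, 4 without replicate 1 of 6 months), 1 to 3 in epididymal adipocytes at 18 against 6 months (1 without replicate 2 of 6 months) and 1 to 3 for the difference of changes at 18 months (3 without bone marrow replicate 3 of 18 months); the other counts kept within 1.5 times their value. With the replicate block, fixed or random, all counts stayed the same except 4 in place of 5 for the difference of changes at 14 months, where Igf1r (-0.66) was lost; same-numbered arrays of the 2 cell types correlated at -0.136 to 0.153, so the numbers were not taken as pairs. Each gene had 1 probe set, so the choice of another probe set gave no value. Median centring moved the median of all probe sets from 14 to 18 months in epididymal adipocytes to 0.25, and ribosomal scaling moved it from 6 to 14 months to -0.31.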

Other observations

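Genes whose pattern was most like that of a member were sought among 5167 genes over the 18 arrays, after the mean of each cell type was taken off. Such values share pools and ages, so they describe these arrays. Igfbp6 ran closest to Timp2, an inhibitor of matrix metalloproteinases (r = 0.974), then Tm6sf1 (0.969) and Tagln2 (0.968). Igf1r ran closest to Elmo1, Eps8 and Myh9 (0.957, 0.942 and 0.935), which act on the actin cytoskeleton. Igf2 ran closest to Cygb, Dbn1 and AB124611 (0.932, 0.921 and 0.918). Igfbp7 ran closest to Abi3bp (0.959), Pappa (0.933) and the endothelial sialomucin Emcn (0.923). Its value with Pappa was 0.988 within the 9 bone marrow arrays and 0.728 within the epididymal arrays.

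Some partners of the other binding proteins held in one cell type more than in the other, a difference that was not tested. Igfbp4 ran with the matrix genes Sparc and Prelp (0.903 and 0.890; 0.918 and 0.907 in bone marrow, 0.401 and 0.609 in epididymal adipocytes) and with Dlg5 (0.879). Igfbp5 ran with Ppic, Crtap and Kirrel (0.866, 0.819 and 0.813), the pair with Crtap, a helper of collagen modification, giving 0.909 in bone marrow and 0.0445 in epididymal adipocytes. Igfbp3 ran with Tfec, Parvb and Spryd4 (0.878, 0.865 and 0.854), and Igfbp2 with Cpt1c, Arhgef5 and Pigz (0.835, 0.785 and 0.770). Igf1 ran with Zfp758, Kctd12b and Gpd1, the glycerol-3-phosphate dehydrogenase of the cytosol (0.828, 0.821 and 0.802), and Igf2r with Arhgap10, Tnip3 and Etl4 (0.899, 0.842 and 0.839).

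B lineage markers, which are no part of the IGF system, stood high in both cell types at 14 months. In bone marrow 7 of 9 rose between 6 and 14 months (median 0.99) and all 9 fell by 18 months (median -1.01), and in epididymal adipocytes 6 of 9 rose (median 0.70) and 5 fell (median -0.84).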
